A study of Homo sapiens with 6 samples.

Results

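The 42 genes described here encode the machinery that copies DNA in S phase, from the origin recognition complex to the ligase that seals new strands. They were taken by symbol from the deposited table of 58273 gene rows, and all 42 were found, each in 1 row. The study sequenced RNA of cells labelled Daudi (a line of malignant B cells grown from a Burkitt lymphoma). There were 3 libraries of wild type cells and 3 of cells in which a short hairpin RNA knocked down the glycolytic enzyme ENO1 (shENO1). The question is whether transcripts of the replication machinery differed after the knockdown. No library is labelled as carrying a control hairpin, so effects of the hairpin itself and of lower ENO1 cannot be told apart. Each library has a replicate number from 1 to 3. Nothing in the labels says that these were separate cultures, so the p-values cover the spread between libraries, which may be technical.

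Replication begins with licensing. The origin recognition complex marks origins, and CDC6 and CDT1 load the ring-shaped MCM helicase there before S phase, while geminin (GMNN) blocks CDT1 once S phase has begun. Kinases, CDC45 and the GINS complex then switch the helicase on, the primase and 3 kinds of polymerase copy both strands, the PCNA clamp holds the polymerases to DNA, and replication protein A (RPA) covers the exposed single strands. Many of these genes are switched on together at the G1/S boundary by E2F transcription factors, and in a fast-growing lymphoma line they are usually well expressed.

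The libraries were first checked as a whole. FPKM is a level per length of transcript, so absolute depth is unknown. It summed to between 958697 and 1053890 per library, and the depth estimated from the steps of low values was at most 1.28 times that of wild type replicate 1, the shallowest. ENO1 ranged from 927 to 1747 FPKM across wild type libraries and from 212 to 368 FPKM across shENO1 libraries, without overlap, as the labels say. Several defining markers of the labelled cell type were absent. Of 12 B cell markers 5 stayed under 1 FPKM in every library, among them MS4A1 (CD20) and CD79B, the latter listed at 0 in all 6. Of 15 myeloid markers 13 had a mean of at least 1 FPKM, and the summed level of that list ran from 872 to 1430 FPKM over wild type and from 925 to 1476 FPKM over shENO1 libraries, against 17.4 to 18.7 and 16.4 to 20.01 FPKM for the B cell list. CTSG, a granule protease of myeloid cells, alone reached 236 to 536 FPKM. What part this has in the results was not tested. The other lists of cell type markers were low, apart from NKG7 (59.8 to 76.6 FPKM), BCL6, MYBL1 and CD38.

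All 42 replication genes passed the filter of 0.5 FPKM in at least 3 libraries, with means over the 6 libraries from 9.04 FPKM (GINS3) to 265 FPKM (MCM4). Together they summed to 2139, 1633 and 2551 FPKM in wild type, in the order of replicates 1 to 3, against 2327, 2135 and 2479 FPKM in shENO1. Wild type replicate 2 was the lowest library, and the shENO1 sums lay within the wild type range. In bulk RNA, fewer cells in S phase and less RNA per cell cannot be told apart. Wild type replicate 2 also had the largest share of its FPKM in 6 rows of 5 small structural RNAs (RN7SL1, RN7SL2, RN7SK, RPPH1 and RMRP; 49.0%, against 43.8% to 45.6% in the others). With those RNAs taken out of the total, the replication genes held 0.304% of the FPKM in this library and 0.396% to 0.433% in the other 5.

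**Figure D1:**
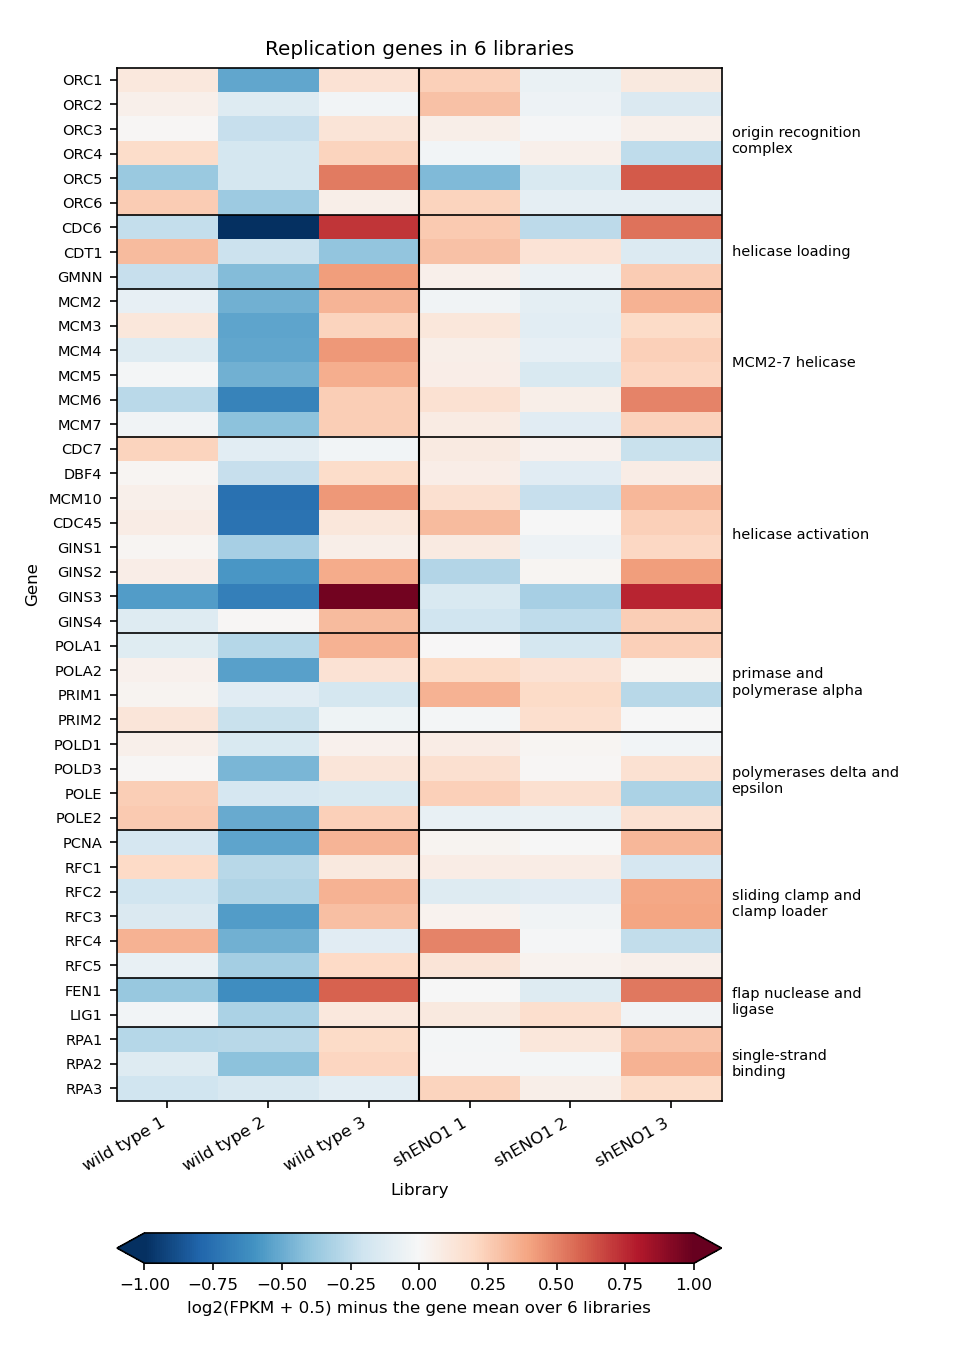
Colour gives log2(FPKM + 0.5) of each of the 42 genes (rows, by role) in each library (columns) minus the gene's mean over the 6 libraries, with blue for low and red for high. The column of wild type replicate 2 is blue for most genes, and it was the lowest of the 6 libraries for 32 of 42.

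Promoter sequences show what these genes share outside the measurements. Of the 42 genes, 36 had at least 1 promoter window in the RefSeq table (GRCh38.p14), each running from 250 bases before to 50 bases after a start. The letters TTGGCGC or TTCCCGC, core forms of the E2F site, were found on either strand in the windows of 23 of these 36 genes (63.9%), against 11.0% of all 27305 symbols in the table. Per window the shares were 54.3% of 46 and 9.23% of 35116. CCAAT, the core of the NF-Y site, was found for 20 of 36 genes (55.6%, against 39.7% of all symbols), and TTTGAA or TTCGAA, core forms of the CHR element of late cell cycle genes, for 2 of 36 (5.56%, against 19.5%). A match is a description of the letters and says nothing of binding. The stretches below hold E2F matches of 4 members, 1 window each, 5′ to 3′ on the strand of the gene, with each match in capitals (GCGGGAA and GCGCCAA are the same letters read from the other strand). They are shown because they cover the kinase, helicase, polymerase and clamp steps and lie before the gene in both RefSeq and GENCODE.
CDC7, chr1:91500729-91500850, plus strand: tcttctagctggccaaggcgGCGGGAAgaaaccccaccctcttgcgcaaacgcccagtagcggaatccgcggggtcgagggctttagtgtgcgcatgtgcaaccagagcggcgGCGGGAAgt
MCM6, chr2:135876506-135876614, minus strand: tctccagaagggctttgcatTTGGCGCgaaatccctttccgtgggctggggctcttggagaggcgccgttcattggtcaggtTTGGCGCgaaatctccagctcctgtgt
POLA1, chrX:24693761-24693824, plus strand: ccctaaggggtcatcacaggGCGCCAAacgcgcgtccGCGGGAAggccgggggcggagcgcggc
PCNA, chr20:5126655-5126701, minus strand: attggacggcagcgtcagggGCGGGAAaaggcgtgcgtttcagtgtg

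In CDC7, the kinase that switches the helicase on, the window shown has 2 matches between 3 and 102 bases before the start. MCM6 has 2 between 83 and 151 bases before it, and POLA1 has 2 between 114 and 137 bases. The 1 match of PCNA lies 53 to 59 bases before the start. The 23 genes with an E2F match had a median log2 fold change of 0.16 between shENO1 and wild type, and the 13 matched genes without it 0.10. With and without CCAAT the medians were 0.15 and 0.12. For the CHR letters, found for only 2 genes, they were 0.24 and 0.15. None of these differences was tested.

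Across the machinery as a whole, transcript levels leaned higher in shENO1, but the lean was small and differed between replicate pairs. The median log2 fold change fell to -0.03 without wild type replicate 2, with shENO1 replicate 2 kept. Of the 42 genes 38 had a log2 fold change above 0, where 49.2% of all 17870 tested genes did, and the median was 0.15, against -0.0036 over all genes. Every difference lay between -0.15 and 0.47 on the log2 scale. No gene of the 42 passed limma at an adjusted p under 0.05 (0.00% of all genes did), and the adjusted p was 0.9999 for each. The same limma fit gave ENO1, with a log2 fold change of -2.14, an adjusted p of 0.518. The absence of calls therefore does not show that the members were unchanged. At the unadjusted level 1 gene, RPA3, had a limma p under 0.05 (1.98% of all genes). RPA3 was also the only member whose groups did not overlap, against 5.99% of all genes in either direction, 2.71% as higher and 3.28% as lower. With the replicate number as a block, 6 of 42 had an unadjusted p under 0.05, all higher in shENO1, against 7.55% of all genes in either direction and 3.77% as higher. The block gave 0 members at an adjusted limma p under 0.05 (0.00560% of all genes, which is ENO1), and their smallest adjusted p was 0.585.

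**Figure D2:**
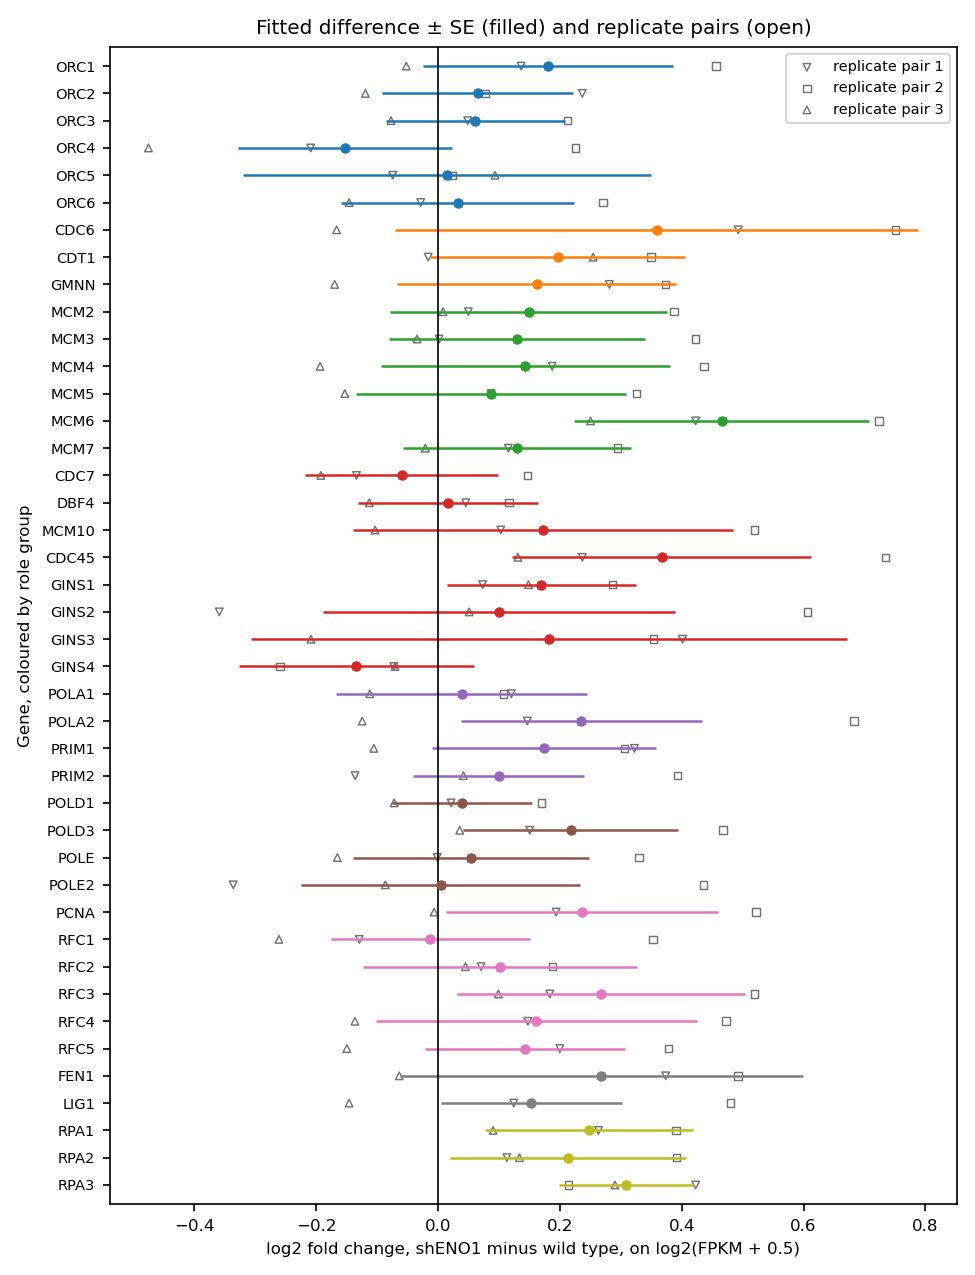
Filled points give the fitted log2 fold change of each gene, shENO1 minus wild type, with its standard error, coloured by role, and open marks give the difference within each replicate pair. Pair 2 (squares) lies to the right of 0 for 41 of 42 genes, while pair 3 (upright triangles) does so for 14.

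The pairs did not show the same thing. In pair 1, 31 of 42 genes were higher in shENO1, with a median difference of 0.11. In pair 2, 41 of 42 were higher, with a median of 0.38, and in pair 3 there were 14, with a median of -0.07. Over all tested genes 8673, 8670 and 8729 of 17870 were higher in pairs 1 to 3. Higher in 3 of 3 pairs were 10 members (14.1% of all genes), namely MCM2, MCM6, CDC45, GINS1, POLD3, RFC2, RFC3, RPA1, RPA2 and RPA3. Of these, MCM2 and RFC2 had log2 fold changes of -0.06 and -0.02 without wild type replicate 2. That comparison kept shENO1 replicate 2. In pairs 1 and 3 the differences were 0.05 and 0.0084 for MCM2 and 0.07 and 0.045 for RFC2. Lower in 3 of 3 pairs was 1 member, GINS4 (15.8% of all genes).

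The size of the lean depended on wild type replicate 2. This library was the lowest of the 6 libraries for 32 of 42 replication genes, where this held for 15.0% of all genes, and it was the highest for 0 of 42. Without it, the median log2 fold change was -0.03 and 17 of 42 genes lay above 0. That leave-out kept shENO1 replicate 2, so the libraries numbered 1 and 3 weighed more in wild type than in shENO1. Pairs 1 and 3, which lack wild type replicate 2, had 31 and 14 of 42 genes higher, with medians of 0.11 and -0.07. No fit without both libraries numbered 2 was made. The other leave-outs moved the median the other way or less. Dropping wild type replicate 3 gave 0.28 with 38 genes above 0, and dropping shENO1 replicate 3 gave 0.08 with 33 above 0. Leaving out the remaining libraries gave medians from 0.14 to 0.20. In each of the 6 leave-outs 16 genes lay above 0, among them MCM6, CDC45, PCNA, FEN1 and all 3 RPA genes.

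**Figure D3:**
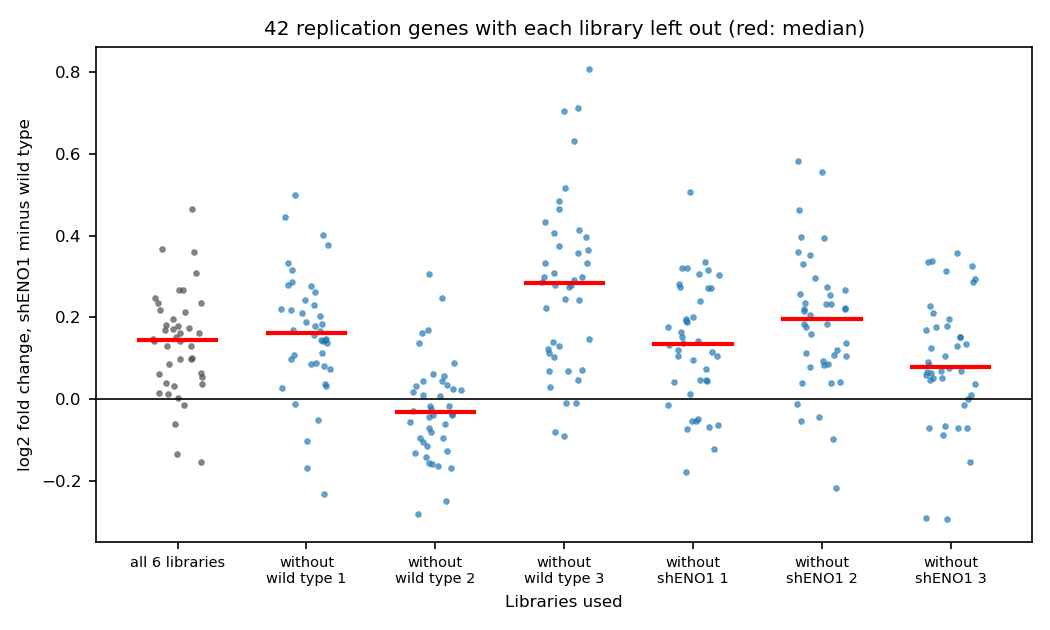
Each point is the log2 fold change of 1 of the 42 genes, shENO1 minus wild type, with all 6 libraries and with each library left out in turn, and red bars give medians. The median falls from 0.15 to -0.03 when wild type replicate 2 is left out.

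The wild type libraries also spread more than the shENO1 libraries. The range between the lowest and highest wild type library was wider than that in shENO1 for 36 of 42 genes, against 60.8% of all genes, and its median was 0.65 log2 units in wild type and 0.33 in shENO1. For 41 of 42 genes, all but RPA3, the range within wild type exceeded the difference between the groups, as it did for 16460 of all 17870 genes.

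RPA, the trimer that coats single-stranded DNA, was the role group whose members were all higher in shENO1 in every pair. RPA3, the smallest subunit (ENSG00000106399.11, GRCh38 chromosome 7, 7636518 to 7718607, minus strand), measured 52.4, 53.8 and 55.8 FPKM in wild type, against 70.4, 62.5 and 68.4 FPKM in shENO1 (in the order of replicates 1 to 3, as for all genes below). All shENO1 libraries lay above all wild type libraries, and the wild type values were close together. The means were 54.0 ± 1.73 and 67.1 ± 4.07 FPKM (SD, n = 3 each), a log2 fold change of 0.31 (SE 0.11). The unadjusted limma p was 0.0266, or 0.00474 with the replicate block. An exact two-sided permutation test gave p = 0.1, which is as low as 3 libraries against 3 can reach. The fold change held between 0.27 and 0.36 with any library left out, wild type replicate 2 included (0.31). Its adjusted limma p was at least 0.517 under every alternative run.

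The other RPA subunits overlapped between groups. RPA1, the large DNA-binding subunit, measured 41.95, 42.003 and 58.5 FPKM in wild type, against 50.5, 55.2 and 62.3 FPKM in shENO1. RPA2, the middle subunit, which is phosphorylated after DNA damage, was at 43.0, 35.2 and 54.6 FPKM and at 46.5, 46.3 and 60.0 FPKM. In both genes the highest library was shENO1 replicate 3 and wild type replicate 3 came close to it. The log2 fold changes were 0.25 (SE 0.17) for RPA1 and 0.21 (SE 0.19) for RPA2, and with the block their unadjusted p was 0.0223 and 0.0414. Without wild type replicate 2 they were 0.17 and 0.06. Exons of RPA3 overlap UMAD1 on the other strand, and those of RPA1 overlap SMYD4. No source used here says whether counting used strand, so reads of such partners cannot be told apart. UMAD1 measured 11.7 ± 0.325 FPKM in wild type, against 11.1 ± 0.666 FPKM in shENO1, and SMYD4 11.0 ± 1.11 and 11.7 ± 1.46 FPKM (SD, n = 3 each), below RPA3 and RPA1 in level.

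**Figure D4:**
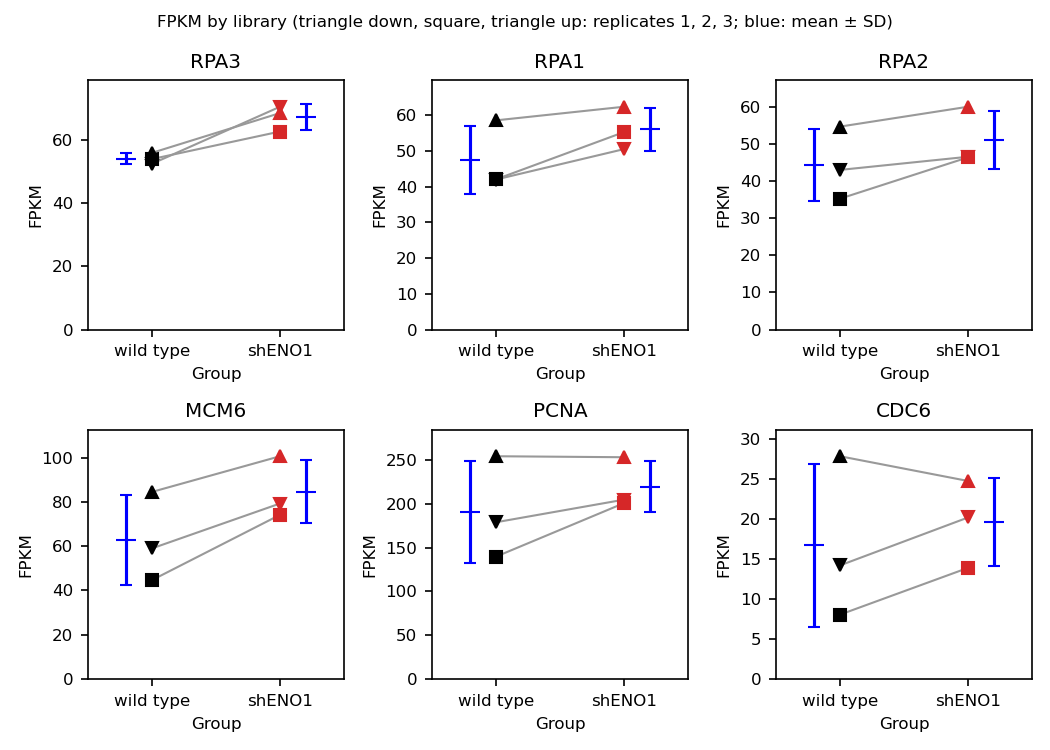
FPKM of 6 replication genes in each library, with lines joining libraries of the same number and blue bars for the mean ± SD of 3 libraries. RPA3 is the only gene of the 6 whose groups do not overlap, and in CDC6 and PCNA replicate 3 is not higher in shENO1.

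Among the helicase subunits, MCM6 had the largest difference. The 6 MCM proteins form 1 ring that unwinds DNA. MCM6 (ENSG00000076003.4, GRCh38 chromosome 2, 135839626 to 135876426, minus strand) measured 59.0, 44.7 and 84.5 FPKM in wild type, against 79.3, 74.2 and 101 FPKM in shENO1. It was higher in shENO1 in 3 of 3 pairs, but the groups overlapped since wild type replicate 3 exceeded shENO1 replicates 1 and 2. The means were 62.7 ± 20.2 and 84.7 ± 14.0 FPKM (SD, n = 3 each), a log2 fold change of 0.47 (SE 0.24), the largest of the 42. Its unadjusted limma p was 0.0941, and 0.00493 with the block (adjusted p = 0.585). It kept a log2 fold change of 0.25 without wild type replicate 2, where the other 5 MCM genes lay between -0.13 and -0.04. No test of MCM6 against the other subunits was made.

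MCM4, the most abundant of the 42 transcripts per length, measured 237, 181 and 351 FPKM in wild type, against 270, 245 and 307 FPKM in shENO1. Its log2 fold change was 0.14 (SE 0.24). The lowest and the highest library were both wild type, as for MCM3, MCM5 and MCM7. MCM5, the subunit with the smallest difference of the 6, was at 83.6, 60.6 and 109 FPKM and at 88.8, 76.0 and 98.1 FPKM, a log2 fold change of 0.09 (SE 0.22). MCM2, MCM3 and MCM7 had log2 fold changes of 0.15, 0.13 and 0.13. Summed over the 6 subunits, the helicase stood at 766, 560.1 and 1003 FPKM in wild type, against 838, 750.1 and 959 FPKM in shENO1. The order of levels per length, MCM4 above MCM3, MCM7, MCM2, MCM5 and MCM6, was the same in 5 of 6 libraries. The exception was in shENO1 replicate 3, where MCM6 passed MCM5. The step from MCM4 to MCM3 was 1.65-fold in the mean, and no other neighbouring step exceeded 1.32-fold.

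The loading factors differed more between libraries than between groups. CDC6, the ATPase that recruits the helicase to origins, measured 14.2, 8.06 and 27.9 FPKM in wild type, against 20.2, 13.9 and 24.8 FPKM in shENO1. Both extremes were wild type libraries, and the log2 fold change was 0.36 (SE 0.43). That value became -0.06 when wild type replicate 2 was dropped and 0.81 when wild type replicate 3 was. CDT1, its partner in loading, was at 85.9, 59.5 and 52.5 FPKM and at 84.9, 76.0 and 62.7 FPKM, a log2 fold change of 0.20 (SE 0.21). In contrast to CDC6, CDT1 was lowest in the libraries numbered 3 of its group. GMNN, the inhibitor of CDT1, was at 37.4, 32.3 and 58.9 FPKM and at 45.5, 42.04 and 52.3 FPKM, a log2 fold change of 0.16 (SE 0.23), and wild type replicate 3 was its highest library.

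The origin recognition complex had a median log2 fold change of 0.05 over 6 genes, 5 of them above 0. ORC1, the subunit whose level follows the cell cycle in human cells, measured 34.4, 22.1 and 35.5 FPKM in wild type, against 37.9, 30.6 and 34.2 FPKM in shENO1. Wild type replicate 2 was the low library and the other 5 lay close together. Its log2 fold change was 0.18 (SE 0.21), and -0.03 without that library. ORC4, a core subunit, was at 13.3, 10.3 and 13.8 FPKM and at 11.5, 12.1 and 9.76 FPKM, a log2 fold change of -0.15 (SE 0.18), the lowest of the 42. It was the only ORC gene below 0. ORC4 shares exon positions with MBD5 on the other strand, a gene at 18.0 FPKM against 11.8 FPKM for ORC4, so its estimate is uncertain. ORC5 varied by replicate number instead, at 9.84, 11.3 and 18.7 FPKM and at 9.32, 11.5 and 19.9 FPKM. Per length, ORC1 (mean 32.4 FPKM) and ORC6 (31.7 FPKM) did not keep an order, ORC2 followed at 23.6 FPKM below both in every library, and ORC3, ORC5 and ORC4 lay between 11.8 and 16.4 FPKM.

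Genes that turn the loaded helicase on ranged from below to above 0. CDC45, which joins the MCM ring in the active helicase, measured 31.8, 17.9 and 32.6 FPKM in wild type, against 37.6, 30.1 and 35.7 FPKM in shENO1. It was higher in 3 of 3 pairs, with wild type replicate 2 far below the other libraries. The log2 fold change was 0.37 (SE 0.25), the unadjusted p with the block was 0.0356, and without wild type replicate 2 the fold change was 0.09. DBF4, the activating subunit of the CDC7 kinase, was the most abundant of the group at 42.7, 35.7 and 47.8 FPKM and at 44.1, 38.8 and 44.2 FPKM, a log2 fold change of 0.02 (SE 0.15). CDC7 itself was at -0.06. DBF4 shares exon positions with SLC25A40 on the other strand, a gene at 49.1 FPKM against 42.2 FPKM for DBF4.

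The GINS complex, made of 4 subunits, joins CDC45 on the MCM ring. GINS1, GINS2 and GINS3 had log2 fold changes of 0.17, 0.10 and 0.18, and GINS4 -0.13 (SE 0.19). The directions of GINS2 and GINS3 depended on single libraries, while GINS1 stayed above 0 and GINS4 below 0 in all 6 leave-outs. Without wild type replicate 2 the values were 0.04, -0.17 and -0.11 for GINS1 to GINS3 and -0.16 for GINS4, and GINS3 lay below 0 in 3 of 6 leave-outs. GINS4 measured 22.4, 24.6 and 30.7 FPKM in wild type, against 21.3, 20.5 and 29.2 FPKM in shENO1, lower in 3 of 3 pairs. It was also the only gene of the 42 that pair 2 did not show as higher. GINS3, the least abundant of the 42, was at 5.36, 4.86 and 16.3 FPKM and at 7.24, 6.35 and 14.1 FPKM, so both libraries numbered 3 lay far above the others. GINS2 shares exon positions with GSE1 on the other strand, a gene at 68.5 FPKM against 14.3 FPKM for GINS2, so its estimate is uncertain. MCM10, which stabilises the active helicase, had a log2 fold change of 0.17 (SE 0.31), or -0.16 without wild type replicate 2, its lowest library at 9.48 FPKM.

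Primase and polymerase alpha lay the first RNA and DNA of each new strand. POLA2, the accessory subunit, measured 31.3, 20.7 and 33.5 FPKM in wild type, against 34.7, 33.6 and 30.7 FPKM in shENO1, a log2 fold change of 0.24 (SE 0.20), or 0.02 without wild type replicate 2. POLA1, the catalytic subunit, was at 18.0, 15.98 and 25.1 FPKM and at 19.6, 17.3 and 23.1 FPKM, a log2 fold change of 0.04 (SE 0.21). PRIM1, the small primase subunit that makes the RNA, was at 32.5, 29.5 and 28.2 FPKM and at 40.7, 36.6 and 26.2 FPKM, a log2 fold change of 0.17 (SE 0.18). Its shENO1 libraries numbered 1 and 2 were its highest and the shENO1 library numbered 3 its lowest. PRIM1 shares exon positions with NACA on the same strand, a gene at 483 FPKM, so its estimate is uncertain. PRIM2 was at 0.10.

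Among the 4 listed genes of the polymerases that copy most of the genome, the catalytic POLE and POLD1 were above the accessory POLD3 and POLE2 in level per length. POLE, the catalytic subunit of the leading-strand polymerase, measured 80.5, 60.3 and 61.0 FPKM in wild type, against 80.4, 75.9 and 54.3 FPKM in shENO1. Its lowest library was shENO1 replicate 3, and its log2 fold change of 0.05 (SE 0.19) changed sign in 4 of 6 leave-outs. POLE2 was at 22.8, 13.2 and 22.3 FPKM and at 17.9, 18.0 and 21.0 FPKM, a log2 fold change of 0.0044 (SE 0.23). POLD3, an accessory subunit of polymerase delta, was at 30.7, 22.0 and 33.0 FPKM and at 34.1, 30.6 and 33.9 FPKM, higher in 3 of 3 pairs, with a log2 fold change of 0.22 (SE 0.18), or 0.04 without wild type replicate 2. POLD1, the catalytic subunit of delta, was at 0.04 and was 2.16 times as abundant per length as POLD3.

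The sliding clamp PCNA, the second most abundant of the 42, measured 179, 140 and 254 FPKM in wild type, against 205, 201 and 253 FPKM in shENO1. Pair 3 was level, pairs 1 and 2 were higher in shENO1, and the log2 fold change was 0.24 (SE 0.22), or 0.03 without wild type replicate 2. Its loader is the RFC complex of 5 subunits. RFC3 was at 30.4, 22.7 and 41.5 FPKM and at 34.5, 32.8 and 44.5 FPKM, higher in 3 of 3 pairs, with a log2 fold change of 0.27 (SE 0.24) and an unadjusted p of 0.0423 with the block. Without wild type replicate 2 its fold change was 0.06. RFC1, the large subunit, was at 49.1, 35.1 and 45.5 FPKM and at 44.9, 44.9 and 37.9 FPKM, a log2 fold change of -0.01 (SE 0.16). RFC2, RFC4 and RFC5 were at 0.10, 0.16 and 0.14. PCNA was 3.94 times as abundant per length as RFC4, the highest loader subunit. RFC4 shares exon positions with EIF4A2 on the other strand, a gene at 210 FPKM.

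The listed enzymes that finish lagging strands were each lowest in wild type replicate 2 but differed in the libraries numbered 3. FEN1, the nuclease that trims flaps between Okazaki fragments, measured 34.3, 28.9 and 67.6 FPKM in wild type, against 44.6, 40.9 and 64.7 FPKM in shENO1. Both libraries numbered 3 were high, and the log2 fold change was 0.27 (SE 0.33), or 0.03 without wild type replicate 2. LIG1, the ligase that joins the fragments, was at 41.8, 34.1 and 45.9 FPKM and at 45.6, 47.8 and 41.4 FPKM, a log2 fold change of 0.15 (SE 0.15), or 0.03 without wild type replicate 2. FEN1 shares exon positions with FADS2 on the same strand and TMEM258 on the other, both more abundant, so its estimate is uncertain.

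The libraries numbered 3 differed from those numbered 1 and 2 in both groups, also in the replication genes. In 28 of 42 genes replicate 3 lay above the mean of replicates 1 and 2 in both groups (35.7% of all genes), and in 5 of 42 it lay below in both (40.6% of all genes). The difference was 1.59 log2 units in wild type and 1.001 in shENO1 for GINS3, 1.34 and 0.55 for CDC6, 1.09 and 0.59 for FEN1, and 0.79 and 0.91 for ORC5. All 6 MCM genes were higher in replicate 3 in both groups. The 5 genes that were lower in both were CDT1 (-0.44 and -0.36), POLE (-0.19 and -0.52), PRIM1 (-0.13 and -0.55), CDC7 (-0.09 and -0.29) and RFC4 (-0.04 and -0.49). These values compare 1 library with 2 in each group and were not tested.

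**Figure D5:**
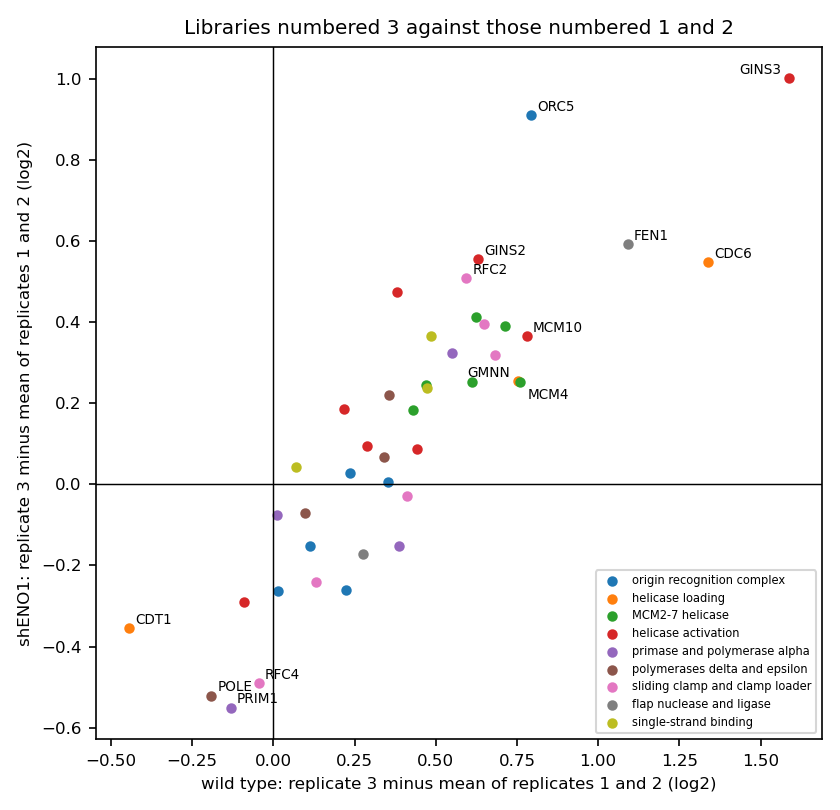
Each point is 1 of the 42 genes, coloured by role, with the log2 difference between replicate 3 and the mean of replicates 1 and 2 in wild type (x axis) and in shENO1 (y axis). Most points lie in the upper right, with GINS3, CDC6, FEN1 and ORC5 farthest out, and CDT1, POLE, PRIM1, RFC4 and CDC7 lie in the lower left.

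Other genes of the pathway leaned in the same way, and wild type replicate 2 was low for them too. Of 31 further replication factors, such as checkpoint mediators and chromatin assembly factors, 26 lay above 0 with a median of 0.15. None passed limma at an adjusted p under 0.05, 0 had an unadjusted p under 0.05, and 5 did with the block, all higher. Wild type replicate 2 was the lowest library for 22 of the 31. In pairs 1 to 3, 26, 26 and 14 of the 31 were higher, with medians of 0.15, 0.31 and -0.02. The highest value was that of DTL, a substrate receptor of the ligase that degrades CDT1. DTL measured 44.3, 22.0 and 49.1 FPKM in wild type, against 52.2, 50.7 and 41.3 FPKM in shENO1 (log2 fold change 0.39, SE 0.30). The lowest value was that of MCMBP, an MCM-binding protein, at -0.05 (SE 0.19). Of 14 tested S phase regulators 13 lay above 0, with a median of 0.11. They ran from CCNE1 (-0.13, SE 0.44) to CCNE2 (0.56, SE 0.51), both cyclin E genes. At an adjusted p under 0.05 there were 0, at an unadjusted p 0, and with the block 2. Wild type replicate 2 was the lowest library for 9 of the 14. Across pairs 1 to 3, 12, 10 and 5 of these regulators were higher, with medians of 0.19, 0.22 and -0.02. Of 26 mitosis genes all lay above 0, with a median of 0.23, from CENPE (0.04, SE 0.24) to PRC1 (0.44, SE 0.23). There 0 passed at an adjusted p, 1 had an unadjusted p under 0.05, and 12 did with the block, while wild type replicate 2 was the lowest library for 20 of 26. In pairs 1 to 3, 25, 26 and 13 mitosis genes were higher, with medians of 0.28, 0.38 and 0.0018. Groups did not overlap for 5 of them, all higher, and for 1 gene in each other list (2.71% of all genes). Over all genes, 49.2% lay above 0 and 1.98% had an unadjusted limma p under 0.05. With the block 3.77% had it as higher, and wild type replicate 2 was lowest for 15.0%.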

How the data were processed

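RNA-seq was analysed in 6 libraries, 3 wild type and 3 shENO1, grouped by the treatment label. The deposited table holds FPKM values per gene, made by the authors with Cuffnorm. STAR, Cufflinks, hg38 and GRCh38 also appear in the submitters' processing notes, without versions. How Cuffnorm scaled libraries, and whether strand was used, no source used here states. The labels name a column kit for the RNA and the study's methods TRIzol. A count test was not made, since the values are not reads, and the absolute depth is unknown.

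Values were transformed as log2(FPKM + 0.5), which understates changes of low genes, and 17870 genes with at least 0.5 FPKM in at least 3 libraries were tested by two-sided limma (version 3.58.1, R 4.3.3) with an intensity trend and without covariates, with Benjamini-Hochberg adjustment over all 17870. Calls needed an adjusted p under 0.05 and an absolute log2 fold change over 1. The script was tested on simulated data. Annotation came from GENCODE release 29 (GRCh38), which held 58010 of the 58273 identifiers once version numbers were removed. Promoter windows came from RefSeq (GRCh38.p14).

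After removal of group means, same-numbered libraries correlated across genes at 0.312, 0.176 and 0.491, and other pairs at -0.390 to 0.144, so the numbers were taken to pair the libraries. For the libraries numbered 2 the lead was narrow, since wild type replicate 1 and shENO1 replicate 2 correlated at 0.144. The labels give no reason for the pairing, which rests on these values, the same that the block fit uses. The block leaves 2 residual degrees of freedom, where the unblocked model has 4.

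The members and lists were chosen with earlier results of these data known, so no p over the list alone and no set test was made. Values per library are given, in each role group, for the genes with the highest mean FPKM and the highest and lowest log2 fold change, and the genes with the highest and lowest log2 fold change of each pathway list are named, with values per library for DTL. CDC7, GINS3, MCM10, ORC5 and RPA1 were given values after these were seen. Alternatives covered the pseudocount, filter, scaling, block, library weights, trend and each library left out, and 3 fits with the block were added after seeing the data.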

Additional observations from a re-analysis of the deposited data

How the results depend on the processing

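No member passed the adjusted threshold in any fit run. The median log2 fold change of the 42 genes lay between -0.03 and 0.28 with 1 library left out, and was 0.29 with library weights, 0.22 without both libraries numbered 3 and 0.19 after scaling libraries to an equal sum. The number above 0 was 17 to 38 with 1 library left out, the lowest without wild type replicate 2, and 38 to 40 in the other fits. At an unadjusted limma p under 0.05 there was 1 member (1.98% of all genes, in either direction, as for the shares that follow). With 1 library left out there were 0 to 9 members (1.57% to 3.91%). The replicate block gave 6 (7.55%), library weights 10 (8.14%) and no intensity trend 0 (2.60%). Without both libraries numbered 3 there were 7 (4.92%). Chosen after seeing the data, the block gave 15 without both libraries numbered 3 (8.04%), 4 with sum scaling (6.99%) and 6 with median-of-ratios scaling (7.59%). Over all genes the calls were 0, 1 with the block and in the 3 added fits with it, 4 with library weights and 2 without both libraries numbered 3.

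The directions of many genes changed, CDC6 (0.36 with all libraries) among them. Of the 42 members 16 stayed above 0 in all 6 leave-outs, and ORC4 and GINS4 stayed below 0. Every other member changed sign at least once, and ranges are given below for only some of these. With sum scaling RFC1 was at 0.0293, also with the block. With library weights RFC1 was at 0.19, ORC4 at 0.0597 and MCMBP at 0.0118, and without both libraries numbered 3, with or without the block, RFC1 was at 0.11 and ORC4 at 0.0084. With 1 library left out the log2 fold change ran from -0.0592 to 0.81 for CDC6, -0.0152 to 0.41 for GMNN, -0.0795 to 0.40 for MCM4, -0.13 to 0.29 for MCM5, -0.0349 to 0.30 for ORC1, -0.10 to 0.11 for DBF4, -0.0944 to 0.22 for POLA1, -0.0529 to 0.23 for POLE, -0.25 to 0.14 for POLE2, -0.15 to 0.0857 for RFC1, -0.48 to 0.29 for CCNE1, -0.16 to 0.16 for CENPE and -0.18 to 0.10 for MCMBP. The cause of these changes was not tested. FPKM keeps no depth, so no counting interval could be given.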
